A study of Homo sapiens with 11 samples.

Results

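The 10 genes described here belong to the BCL2 family, which decides whether a cell survives or dies by its mitochondria. They were chosen by name from 20037 protein-coding genes of the RefSeq annotation on GRCh38. Survival genes were BCL2, BCL2L1 (which encodes BCL-XL), BCL2A1 and MCL1, and the 6 death genes were BCL2L11 (BIM), BBC3 (PUMA), PMAIP1 (NOXA), BID, BAX and BAK1. Each gene was read over a window of its gene body plus 50 kb on either side. The data are peak lists from chromatin immunoprecipitation and sequencing in 92-1, a cell line of uveal melanoma, a tumour of the pigment cells of the eye. Cells had received either DMSO, the solvent, or FHT-1015, an inhibitor of SMARCA4 and SMARCA2, the ATPases of the BAF chromatin remodelling complexes, for 4 h. Antibodies were directed against H3K27ac, an acetylated histone residue found at active promoters and enhancers, SMARCA4, and the transcription factors MITF, TFAP2A (AP-2 in the sample titles) and SOX10. There was 1 library for each of the 5 antibodies in each condition, all from this 1 line, so there were no replicates and no test was possible. A DMSO input library was also labelled, and no peak list of it was used here.

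In the BCL2 family, survival proteins hold the effectors BAX and BAK1 in check at the outer mitochondrial membrane. BH3-only proteins such as BIM, PUMA, NOXA and cleaved BID occupy the survival proteins or act on the effectors directly, and the effectors then open pores that release cytochrome c and start the caspases. In pigment cells, MITF is known to drive transcription of BCL2 and BCL2A1, and SOX10 lies upstream of MITF.

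A DMSO peak counts as retained if 1 or more of its bases fall in a peak of the same antibody's FHT-1015 list. All other DMSO peaks are called lost, and FHT-1015 peaks that touch no DMSO peak are called FHT-1015-only. Peak strength is the −log10 p that the authors' peak caller gave, and peaks at or above 10 are called strong. These strengths and the fold enrichments are the authors' own values, they depend on the library, and values from the DMSO and FHT-1015 lists are set side by side without reading a change from them. Over whole lists the retained share ran from 18.3% for SOX10 to 59.3% for H3K27ac. The depth of the FHT-1015 library relative to the DMSO library, recovered from the peak values, lay between 0.854 (MITF) and 1.15 (SOX10), and the median MITF summit held 15 reads in DMSO and 8 in FHT-1015. The SOX10 libraries carried deposited identifiers of a different form from the others, and whether they were a separate batch was not tested. All 7 melanocyte genes examined (MLANA, PMEL, TYR, DCT, TYRP1, MITF, SOX10) had a strong H3K27ac peak in DMSO. Of 4 markers of other cell types, EPCAM, KRT5 and PECAM1 had no H3K27ac peak and PTPRC had a strong one.

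The promoters of 4 members are printed because they carry contrasts that recur below. Each is the 250 bases before the RefSeq transcription start, 5′ to 3′ on the gene's own strand, from RefSeq on GRCh38.p14, with capitals marking matches to the motifs searched. BAX (chr19:48954625-48954874, plus strand) held the E-box CACGTG, a preferred site of MITF, 4 times. BBC3 (chr19:47232668-47232917, minus strand) held it once. BCL2A1 (chr15:79971197-79971446, minus strand) held the related E-box CATGTG once. BCL2L1 (chr20:31723964-31724213, minus strand) held a match to the SOX core ACAAAG and none to the AP-2 motif GCCNNNGGC.
BAX: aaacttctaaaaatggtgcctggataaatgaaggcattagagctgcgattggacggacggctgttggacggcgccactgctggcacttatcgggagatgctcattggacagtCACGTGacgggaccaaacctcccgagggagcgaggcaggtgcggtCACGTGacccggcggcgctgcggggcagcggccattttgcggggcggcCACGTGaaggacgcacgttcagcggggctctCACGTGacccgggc
BBC3: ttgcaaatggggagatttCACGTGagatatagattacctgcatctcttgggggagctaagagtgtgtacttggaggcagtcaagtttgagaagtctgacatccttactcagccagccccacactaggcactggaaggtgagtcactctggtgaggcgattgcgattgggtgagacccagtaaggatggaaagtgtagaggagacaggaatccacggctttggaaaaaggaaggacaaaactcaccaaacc
BCL2A1: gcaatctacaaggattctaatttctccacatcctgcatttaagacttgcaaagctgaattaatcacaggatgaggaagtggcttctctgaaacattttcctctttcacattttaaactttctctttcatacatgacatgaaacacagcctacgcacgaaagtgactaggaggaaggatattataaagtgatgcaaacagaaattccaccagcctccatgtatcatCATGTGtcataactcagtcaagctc
BCL2L1: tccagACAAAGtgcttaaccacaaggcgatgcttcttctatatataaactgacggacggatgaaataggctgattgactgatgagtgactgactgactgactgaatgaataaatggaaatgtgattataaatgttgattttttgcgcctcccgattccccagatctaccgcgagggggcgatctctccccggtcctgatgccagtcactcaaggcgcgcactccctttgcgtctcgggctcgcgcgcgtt

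Motifs were searched on both strands, and a match is a description of the letters, not a shown binding site. CACGTG occurred in 6.34% of all 35116 RefSeq promoters of this length, CATGTG in 9.42%, ACAAAG in 13.7%, the second SOX core ACAAT in 24.6% and GCCNNNGGC in 19.8%. The promoters of 9 members were matched, 14 in all because BCL2L1 had 2 and BID 5. ACAAT was in none of the 14. Only 5 promoters of the 35116 (0.0142%) held CACGTG 4 or more times, and BAX was one of them.

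BCL2, the founding survival gene, lies at chr18:63123346-63320090 on the minus strand and is by far the longest member, with a body of 196745 bp. Its window of 297 kb also held KDSR. H3K27ac gave 47 DMSO peaks over 50819 bp and 19 FHT-1015 peaks over 30472 bp. Of the 47, 18 (38.3%, 95% Wilson interval 25.8 to 52.6) were retained. SOX10 gave 28 and 12 peaks over 14425 and 4137 bp, with 9 of 28 retained. Both lists thus held fewer peaks over this gene in FHT-1015. SMARCA4 gave 41 and 32 peaks with 24 retained, while its covered length was nearly equal at 21151 and 19975 bp. MITF had 26 and 19 peaks with 16 retained, and TFAP2A 34 and 25 with 21 retained. Strong peaks were kept more often than weak ones: 12 of 15 for H3K27ac, 13 of 14 for MITF, 14 of 16 for TFAP2A, 7 of 9 for SOX10 and 5 of 6 for SMARCA4. In the whole list of every antibody, too, strong peaks were retained more often than all peaks.

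The BCL2 window held 11 sites at which DMSO peaks of all 5 antibodies joined into 1 stretch, more than any other member window. A site is said to keep an antibody if at least 1 of that antibody's peaks in it was retained. By this rule 5 of the 11 kept all 5 antibodies. The strongest H3K27ac peak of the window lay 126 kb into the gene body (chr18:63189730-63196061), with −log10 p of 305 in DMSO and 206 in FHT-1015. The strongest SMARCA4 peak lay within it, at 39.4 and 29.6. At the same place MITF read 265 and 91.3 and SOX10 102 and 6.55. All of these peaks were retained, so this stretch of the gene body kept all 5 antibodies. A second stretch about 82 kb into the gene (chr18:63235912-63240885) also kept all 5 antibodies, with H3K27ac at 204 and 344 and MITF at 196 and 188. Ahead of the gene, at −16.8 kb and inside KDSR, stood the window's strongest MITF peak (295 in DMSO, 107 in FHT-1015, stronger than 99.9% of the DMSO list) and its strongest SOX10 peak (157 and 23.3). The strongest TFAP2A peak, 121 and 156, lay at −47.8 kb, also inside KDSR. At 151 kb into the gene, H3K27ac, MITF and SOX10 peaks of 14.4, 28.7 and 18.6 were lost. The sites at 82 and 151 kb were chosen after their values were seen.

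At the BCL2 start itself, within 1 kb, no MITF peak was found in either condition. H3K27ac there read 104 in DMSO and 107 in FHT-1015, SMARCA4 10.9 and 13.6, and SOX10 9.42 and 3.73. A weak TFAP2A peak of 5.22 lay under an FHT-1015 peak of 4.65, and an adjacent FHT-1015 peak of 21.4 overlapped a DMSO peak of 49.4 whose edge fell just outside the 1 kb. The promoter held 1 GCCNNNGGC match and no E-box.

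BCL2L1, whose product BCL-XL guards the mitochondria of many cell types, lies at chr20:31664452-31723963 on the minus strand, with TPX2 and COX4I2 in its window. Few of its peaks were retained with most antibodies. H3K27ac gave 13 peaks in DMSO and 5 in FHT-1015 with 3 retained (23.1%, 8.18 to 50.3), and the covered length was 17981 bp against 6140 bp. TFAP2A had 16 and 8 peaks with 6 retained, SMARCA4 12 and 8 with 4 retained, and SOX10 11 and 3 with 2 retained. MITF numbers went the other way, 6 and 8, but only 3 of the 6 DMSO peaks were retained and 5 of the 8 FHT-1015 peaks had no DMSO counterpart.

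The contrast within BCL2L1 was between its start and its 3′ part. The start carried one of the strongest TFAP2A peaks of the list (chr20:31722462-31724243, −log10 p 330 in DMSO, above 99.9% of peaks, and 348 in FHT-1015), although the printed 250 bases hold no GCCNNNGGC. H3K27ac at the start read 158 and 202. By contrast, 57.1 kb downstream, near the end of the gene body, MITF read 286 in DMSO and 10.1 in FHT-1015, and H3K27ac over the same stretch (chr20:31663502-31669502) read 180.4 and 10.6. SMARCA4 (29.3), TFAP2A (88.1) and SOX10 (59.9) peaks at that site were lost, and each was the strongest lost peak of its antibody among survival genes. A neighbouring TFAP2A peak 58.9 kb from the start, in the same acetylated stretch, was retained (46.2 and 20.7), and was named after its value was seen. A second site, 24.5 kb into the gene, lost all 5 antibodies, with DMSO values of 75.2 for MITF, 74.6 for TFAP2A, 17.1 for SOX10 and 15.6 for H3K27ac. It was the 1 site of 39 with all 5 antibodies, over all members, that kept none, and it held the strongest lost MITF and H3K27ac peaks among survival genes.

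**Figure D1:**
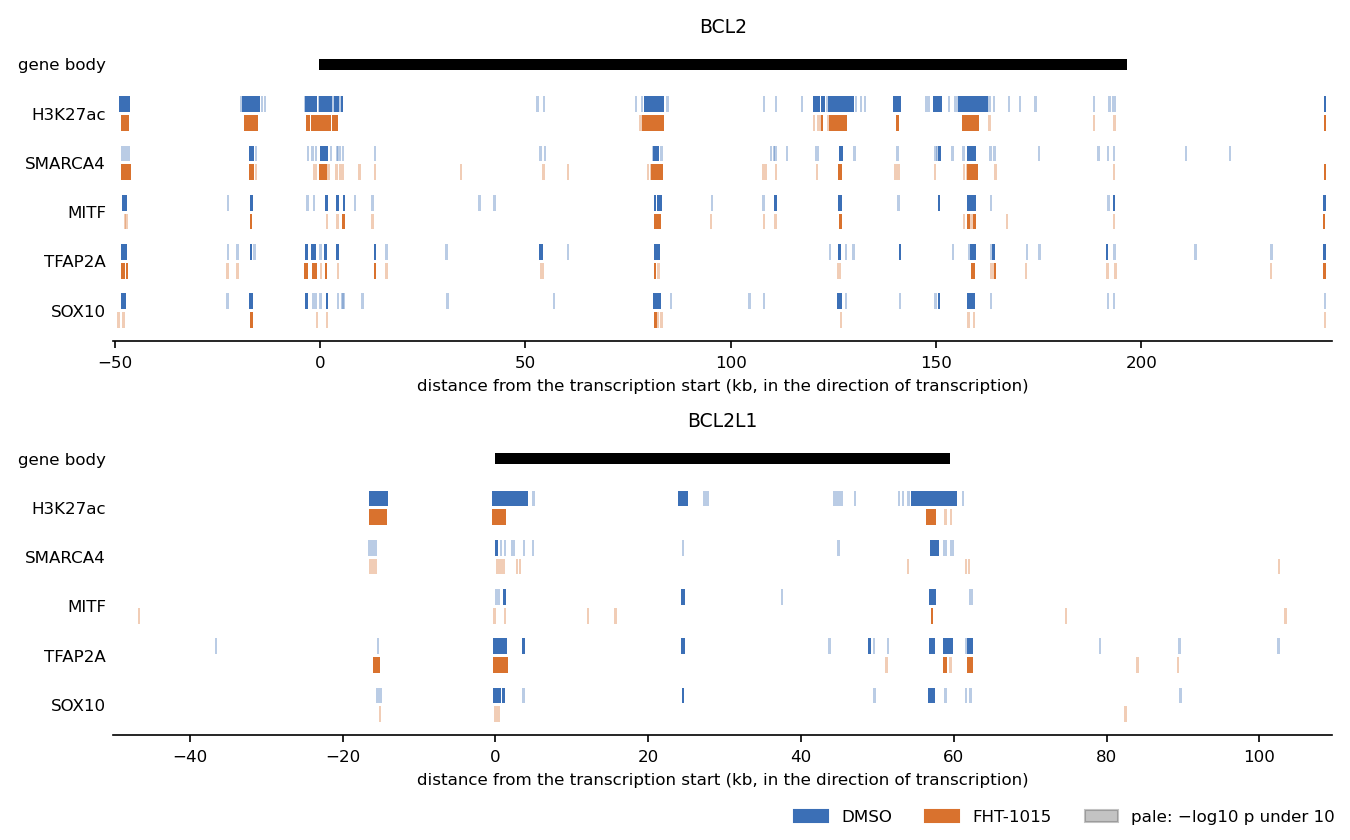
Peaks of the 5 antibodies along the BCL2 and BCL2L1 windows, against distance from the transcription start in kb; blue bars are DMSO peaks, orange bars FHT-1015 peaks, pale bars have −log10 p under 10, and the black bar is the gene body. In BCL2 the sites at about 82, 127 and 159 kb keep all 5 antibodies, while BCL2L1 keeps no antibody at 24.5 kb and has no SMARCA4 or SOX10 peak left at 57.1 kb.

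BCL2A1 encodes a small survival protein of blood and pigment cells and lies at chr15:79960892-79971196 on the minus strand. No peak of any antibody lay within 1 kb of its start in either condition, and CATGTG at −25 in the printed promoter had no MITF peak over it. The peaks of its window stood outside the gene body, apart from 1 TFAP2A peak in DMSO and 1 MITF peak in FHT-1015. H3K27ac gave 15 and 13 peaks in DMSO and FHT-1015 with 10 retained, TFAP2A 13 and 10 with 7, and SMARCA4 14 and 9 with 7. MITF gave 8 and 7 with 3 retained, and SOX10 13 and 8 with 4.

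About 7.5 kb before the BCL2A1 start stood a site that kept all 5 antibodies. H3K27ac over it (chr15:79975961-79981539) read 303 in DMSO and 315 in FHT-1015, MITF 219.6 and 194, TFAP2A 147 and 133, SMARCA4 28.1 and 35.6, and SOX10 171 and 66.8. In DMSO this was the strongest SOX10 peak of all member windows, and in FHT-1015 it was the strongest one as well. Downstream of the gene, at 16.8 kb, the picture differed: MITF read 145 and 11.4, H3K27ac 83.2 and 15.1, and the SOX10 peak of 20.5 was lost. This downstream site was chosen after its values were seen. The strongest TFAP2A peak, 152 and 169.5, lay at 47.2 kb, inside ST20-MTHFS.

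MCL1, a short-lived survival protein, lies at chr1:150574558-150579610, and its window held ADAMTSL4, ENSA and LOC124904417. Both gene boundaries served as its start. It kept most of its peaks: SMARCA4 gave 13 and 13 with 11 retained, TFAP2A 18 and 18 with 14, MITF 12 and 9 with 9, and H3K27ac 16 and 11 with 10. SOX10 was the exception, with 10 and 6 peaks and 3 retained. Every strong MCL1 peak of H3K27ac (8), SMARCA4 (4), MITF (5) and TFAP2A (10) was retained, against 1 of 4 for SOX10. The whole lists retained 87.6%, 85.2%, 61.7% and 71.5% of strong peaks in that order, and 33.0% for SOX10. H3K27ac over the gene read 178 in DMSO and 203 in FHT-1015, SMARCA4 12.5 and 39.1, and SOX10 32.3 and 8.26. Next to the gene, 6.25 to 6.67 kb below its lower coordinate, the window's strongest MITF peak read 64.5 and 6.41 and its strongest TFAP2A peak 151 and 16.4.

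Of the BH3-only genes, BCL2L11 (chr2:111120914-111168445, plus strand) retained no SOX10 peak: SOX10 gave 10 peaks in DMSO and 1 in FHT-1015, covering 4610 and 182 bp, and that 1 peak overlapped none of the 10. With 0 of 10, the Wilson interval reaches 27.8%. MITF gave 8 and 3 peaks with 1 retained, TFAP2A 13 and 6 with 5, and H3K27ac 8 and 3 with 3. SMARCA4 behaved differently, with 10 and 9 peaks and 9 retained. So within 1 window the remodeller's peaks were kept while those of SOX10 and MITF were nearly all lost. The strongest site lay 21.3 kb before the start, in ACOXL (chr2:111098927-111100291). SOX10 there read 109 in DMSO, and the nearest FHT-1015 SOX10 peak was 87228 bp away. TFAP2A at the same site read 168 and 11.9 and SMARCA4 31.1 and 3.75. At the BCL2L11 start, H3K27ac read 29.0 and 43.4, SMARCA4 11.6 and 21.4, TFAP2A 55.5 and 36.7, and the SOX10 peak of 15.1 was lost.

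BBC3, whose product PUMA is a target of p53, lies at chr19:47220824-47232860 on the minus strand, with CCDC9, INAFM1 and SAE1 in its window. H3K27ac gave 19 and 13 peaks with 14 retained, SMARCA4 18 and 15 with 13, TFAP2A 22 and 18 with 18, and MITF 11 and 14 with 8. SOX10 gave 16 and 11 with 6 retained, the highest FHT-1015 to DMSO ratio of SOX10 peak number among members (0.688). Within the gene, about 5 kb from the start, a site kept all 5 antibodies, with TFAP2A at 204 in DMSO and 141 in FHT-1015 and H3K27ac at 208 and 247. Nearer the start, MITF read 88.1 and 16.6, TFAP2A 75.8 and 18.9 and H3K27ac 142 and 184, and the SOX10 peak of 22.4 was lost. The MITF summit there was 1.13 kb inside the gene, and CACGTG at −232 of the printed promoter had no MITF peak over it. The window's strongest MITF peak, 197 and 13.6, was 48.9 kb downstream in SAE1, where the SOX10 peak of 47.6 was lost.

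PMAIP1, another p53 target (chr18:59899996-59904305, plus strand), had no other protein-coding gene in its window and few peaks. SOX10 gave 7 DMSO peaks, of which 1 was retained, and 1 FHT-1015 peak. The other antibodies kept most of theirs: H3K27ac 3 of 4, SMARCA4 5 of 7, MITF 5 of 6 and TFAP2A 3 of 4, with FHT-1015 numbers of 3, 9, 7 and 6. At the PMAIP1 start, H3K27ac read 57.8 in DMSO and 184 in FHT-1015, TFAP2A 19.1 and 45.8, SMARCA4 7.77 and 24.1, and MITF 4.95 and 7.17. The strongest SOX10 peak there, 25.3 in DMSO, was lost. The nearest FHT-1015 SOX10 peak, 542 bp away, read 2.26 and overlapped another DMSO peak of 11.1. About 6.4 kb from the start, just past the gene, MITF read 100.1 and 24.2, TFAP2A 64.9 and 27.7 and SMARCA4 20.6 and 8.89. The strongest FHT-1015-only TFAP2A peak of the death genes, 12.2, lay at −5.38 kb.

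BID (chr22:17734138-17774665, minus strand), which caspases cut to carry death signals from receptors to mitochondria, shared its window with BCL2L13 and MICAL3. TFAP2A gave 17 and 22 peaks with 16 retained (94.1%, 73.02 to 98.95), the highest TFAP2A share of any member. SOX10 gave 7 and 2 with 0 retained, for which the interval reaches 35.4%. H3K27ac gave 5 and 2 with 1 retained, SMARCA4 13 and 9 with 8, and MITF 6 and 5 with 3. The strongest peaks of 4 antibodies lay about 68 kb downstream in BCL2L13, where H3K27ac read 93.5 and 173 and the SOX10 peak of 29.0 was lost. At the start of BID itself H3K27ac was weak, with a DMSO peak of 4.08 that was lost and an FHT-1015-only peak of 11.7 at 184 bp from the nearest DMSO peak. SMARCA4 at the BID start read 6.29 and 24.6. A single CACGTG, shared by 2 overlapping promoters of the 5 at BID, had no MITF peak over it.

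Of the 2 effectors, BAX (chr19:48954875-48961798, plus strand) carried the strongest MITF start peak of the members. The peak (chr19:48954410-48955435) had a fold enrichment of 42.6 and −log10 p of 286 in DMSO, above 99.8% of the list, and 193 in FHT-1015. Its summit lay at −96 in both conditions, 6 bp from the centre of the second of the 4 CACGTG matches, which begin at −138, −93, −45 and −14 in the sequence above. TFAP2A over the BAX start read 180.4 and 134.5, H3K27ac 138 and 164, SMARCA4 6.45 and 21.8 and SOX10 40.4 and 6.998. All 5 antibodies were retained there.

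Over all RefSeq promoters, an MITF peak in DMSO lay over 21.8% of those with no CACGTG, 58.1% with 1, 77.5% with 2 and 65.2% with 3. Of the promoters with an MITF peak, 76%, 91.1%, 95.2% and 100% had at least 1 that was retained, in the same order. Among the 5 promoters with 4 or more, 4 had an MITF peak and all 4 kept it. BAX was itself one of these 4. Promoters with more CACGTG also held strong MITF peaks more often. Of those with an MITF peak, 3587 of 7167 with no CACGTG had a strong one, and 971 of 1186 with 1. The counts were 112 of 124 with 2, 14 of 15 with 3 and 4 of 4 with 4 or more. Strength was not matched, so whether retention followed the number of E-boxes was not tested.

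Away from its start, the BAX window held 5 other protein-coding genes (DHDH, FTL, GYS1, NUCB1 and RUVBL2), and only 5 of its 18 DMSO H3K27ac peaks had BAX as the nearest gene. In the whole window H3K27ac gave 18 and 13 peaks with 10 retained, TFAP2A 18 and 21 with 12, SMARCA4 10 and 12 with 7, MITF 10 and 5 with 4, and SOX10 13 and 6 with 5. At 56.5 kb, in RUVBL2, MITF (181), TFAP2A (120.2), SOX10 (96.0) and SMARCA4 (34.7) peaks were all lost, and H3K27ac read 159.7 in DMSO and 5.89 in FHT-1015. Each of the MITF, TFAP2A and SMARCA4 peaks was the strongest lost one of its antibody among death genes. The TFAP2A and SMARCA4 lists had FHT-1015 peaks 341 and 207 bp from it.

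BAK1 (chr6:33572552-33580276, minus strand), the second effector, had no MITF peak at its start and no match to the motifs in its promoter. MITF gave 8 and 3 peaks with 2 retained, SMARCA4 11 and 8 with 3, SOX10 10 and 5 with 2, and H3K27ac 9 and 5 with 5. TFAP2A was the most frequent factor here, with 24 and 22 peaks and 18 retained, and its strongest peak at −5.49 kb read 117 and 163. At the BAK1 start H3K27ac read 53.8 and 88.2 and TFAP2A 38.5 and 52.9, and the SOX10 peak of 11.2 was lost. At −30.7 kb, about 10 kb outside ITPR3, the SOX10 peak of 76.8 and the TFAP2A peak of 55.6 were lost, and SMARCA4 read 21.8 and 7.84.

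**Figure D2:**
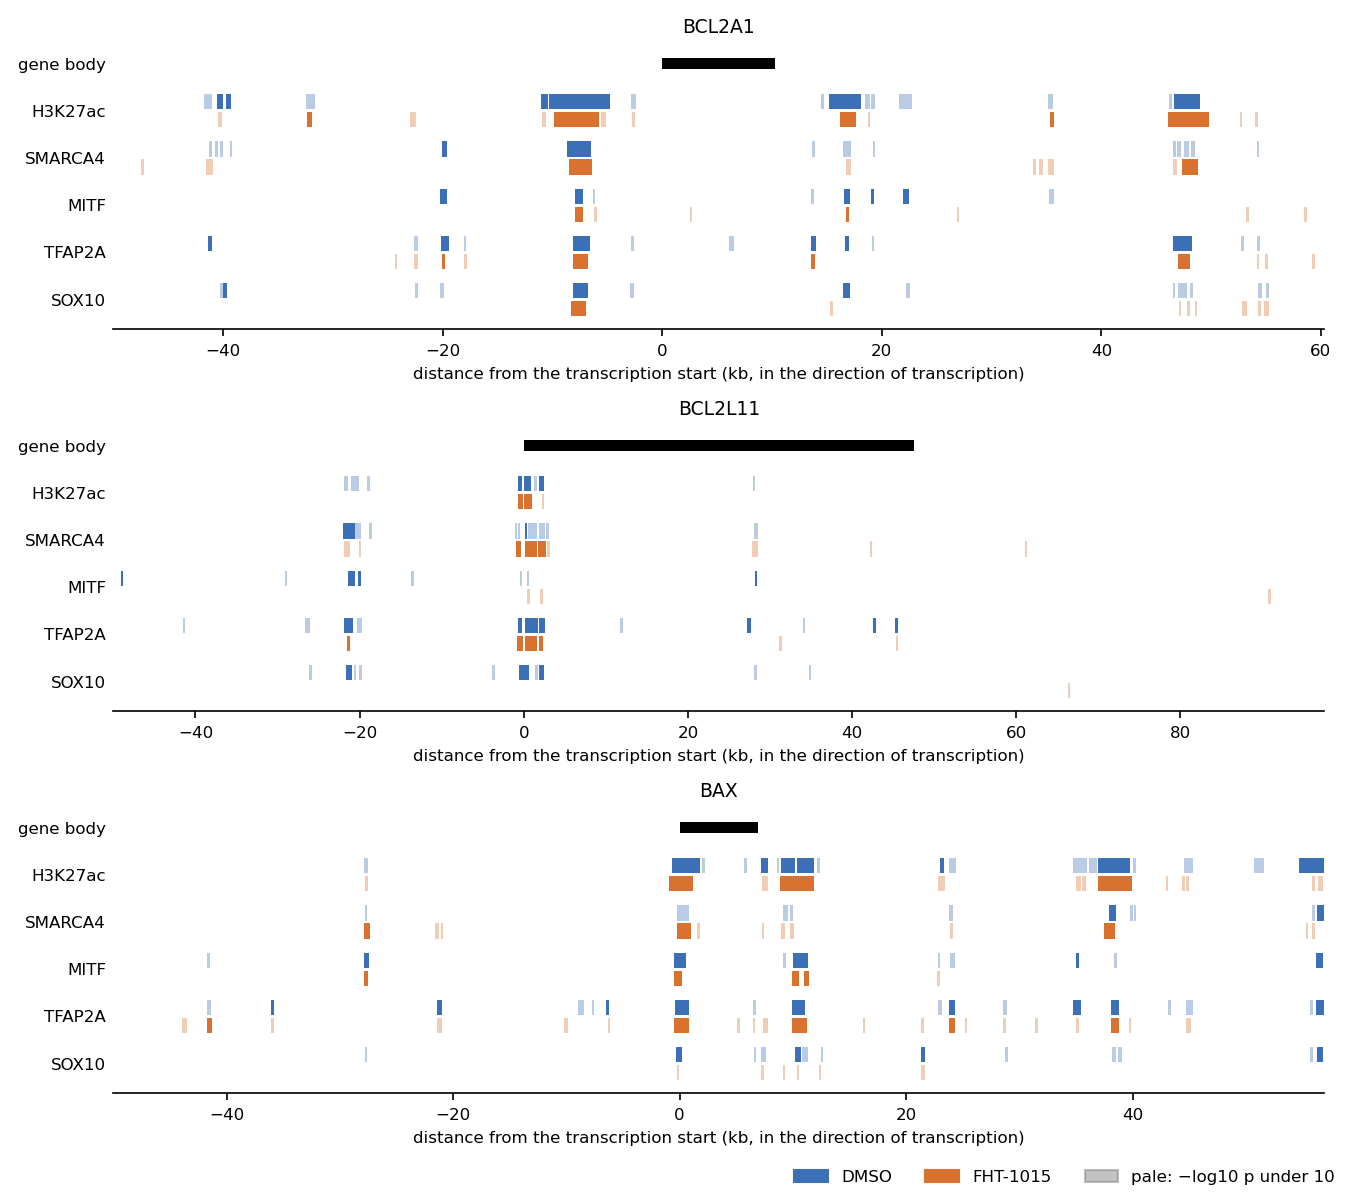
Peaks along the BCL2A1, BCL2L11 and BAX windows, against distance from the transcription start in kb, drawn with blue bars for DMSO, orange bars for FHT-1015, pale bars for −log10 p under 10 and a black bar for the gene body. BCL2A1 has no peak at its start and a site near −7.5 kb that keeps all 5 antibodies, BCL2L11 has 1 SOX10 peak left in FHT-1015, and the BAX start keeps all 5.

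Set against all protein-coding windows, the counts of members past a fixed size lay above the background for some antibodies and criteria and below it for others. At most 10 members were counted each time, and no difference from the background was tested. Windows with at least 5 DMSO peaks of an antibody were counted when their FHT-1015 peak number was at most 50% of the DMSO number, or when under 50% of their DMSO peaks were retained. For SOX10 the number criterion was met by 7 of 10 members (all but BCL2A1, MCL1 and BBC3) and by 73.7% of all windows, and the retention criterion by 10 of 10 members and 91.5% of windows. The loss of SOX10 peaks at these genes was thus what most genes showed. H3K27ac had 4 of 9 members past each criterion, the same BCL2, BCL2L1, BCL2L11 and BID, against 23.5% of windows by number and 20.7% by retention. That share lay above the background, without a test. MITF had 3 of 10 by number (BCL2L11, BAX and BAK1) against 14.6%, and 4 of 10 by retention, which added BCL2A1, against 54.1%. TFAP2A had 2 of 9 by either criterion (BCL2L1 and BCL2L11) against 10.0% and 20.4%. SMARCA4 had 0 of 10 by number against 8.54%, and 2 of 10 by retention (BCL2L1 and BAK1) against 24.9%. No member had an FHT-1015 peak number at least 2 times the DMSO number with any antibody, a criterion that 3.57% of windows met.

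**Figure D3:**
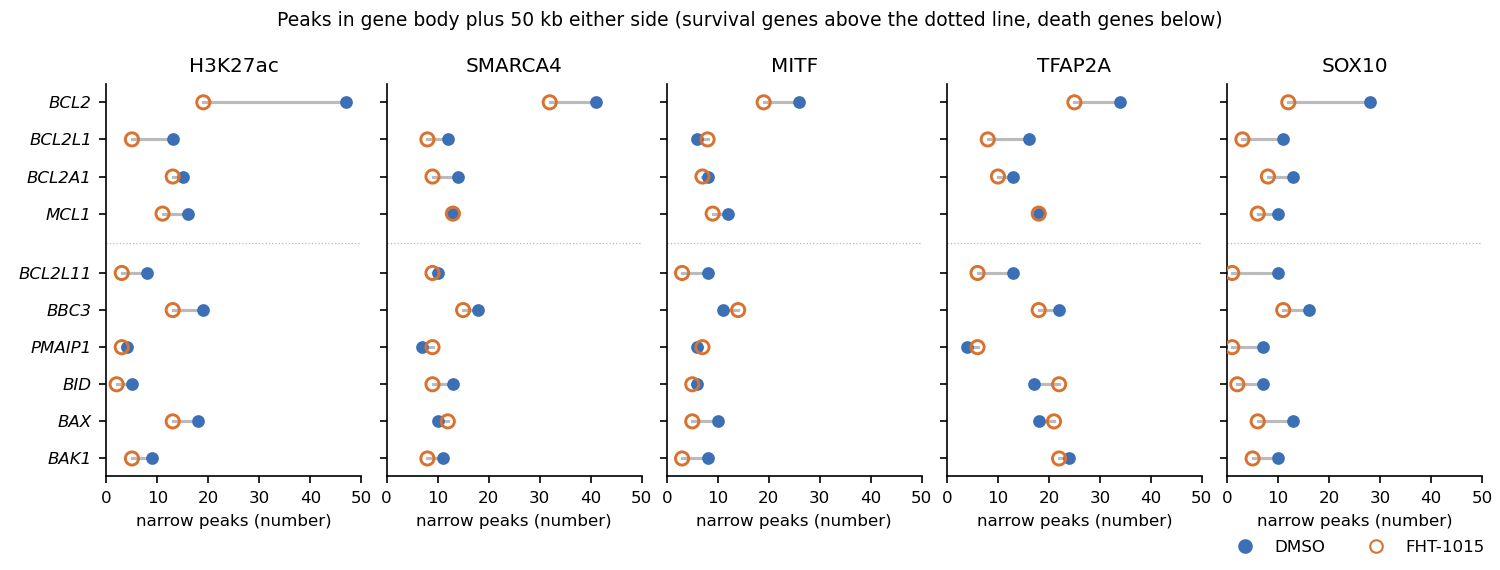
Number of narrow peaks in each member window (horizontal axis) by gene, with 1 panel for each antibody; filled blue points are DMSO, open orange points FHT-1015, and the dotted line separates survival genes from death genes. SOX10 numbers are lower in FHT-1015 for all 10 genes, and BCL2 has the most DMSO peaks with every antibody and the longest window.

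Window lengths differed, so peak density was also compared. Per 100 kb, DMSO H3K27ac peaks ranged from 3.56 at BID to 16.96 at BBC3, with BCL2 at 15.8, BCL2A1 at 13.6 and BCL2L1 at 8.15. Per 100 kb, DMSO SOX10 peaks ranged from 4.98 at BID to 14.3 at BBC3, and in FHT-1015 from 0.678 at BCL2L11 to 9.82 at BBC3. BCL2, first by number, was therefore not first by density.

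Survival and death genes were then compared as classes, which is the contrast the gene list was drawn for. Survival windows retained a smaller share of H3K27ac peaks than death windows, 45.1% (35.2 to 55.3) of 91 against 57.1% (44.9 to 68.6) of 63. The difference was −12.1 percentage points, with a 95% Newcombe interval of −27.2 to 3.89. It was −4.87 without BCL2, −4.95 without BBC3 and −3.08 when peaks were matched on strength and closeness to a gene boundary. For SMARCA4 the shares were 57.5% of 80 and 65.2% of 69 (−7.72, −22.6 to 7.89, and −4.88 when matched in the same way). For TFAP2A they were 59.3% of 81 and 73.5% of 98, a difference of −14.2 (−27.6 to −0.381), and −11.7 when matched. MITF and SOX10 differences had the other sign, which 5 of 22 alternative settings turned for MITF and 3 of 22 for SOX10. Survival windows retained 59.6% of 52 MITF peaks and death windows 46.9% of 49 (12.7, −6.58 to 30.7, and 10.6 when matched). SOX10 was retained for 29.0% of 62 and 22.2% of 63 (6.81, −8.45 to 21.7).

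These intervals cover counting error only, since peaks of 1 window are not replicates and each list came from 1 library. The TFAP2A interval was the only one of the 5 that excluded 0, and it excluded 0 in 8 of 21 alternative settings. Without BCL2L1 that difference was −8.85 (−23.2 to 5.32) and without BID −9.88 (−24.0 to 4.82). The shares of single genes overlapped between the classes for all 5 antibodies. For TFAP2A they ran from 37.5% (BCL2L1) to 77.8% (MCL1) among survival genes and from 38.5% (BCL2L11) to 94.1% (BID) among death genes. For H3K27ac they ran from 23.1% (BCL2L1) to 66.7% (BCL2A1) and from 20.0% (BID) to 75% (PMAIP1). For MITF they ran from 37.5% (BCL2A1) to 75% (MCL1) and from 12.5% (BCL2L11) to 83.3% (PMAIP1). The spread inside each class was wider than the difference between them.

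**Figure D4:**
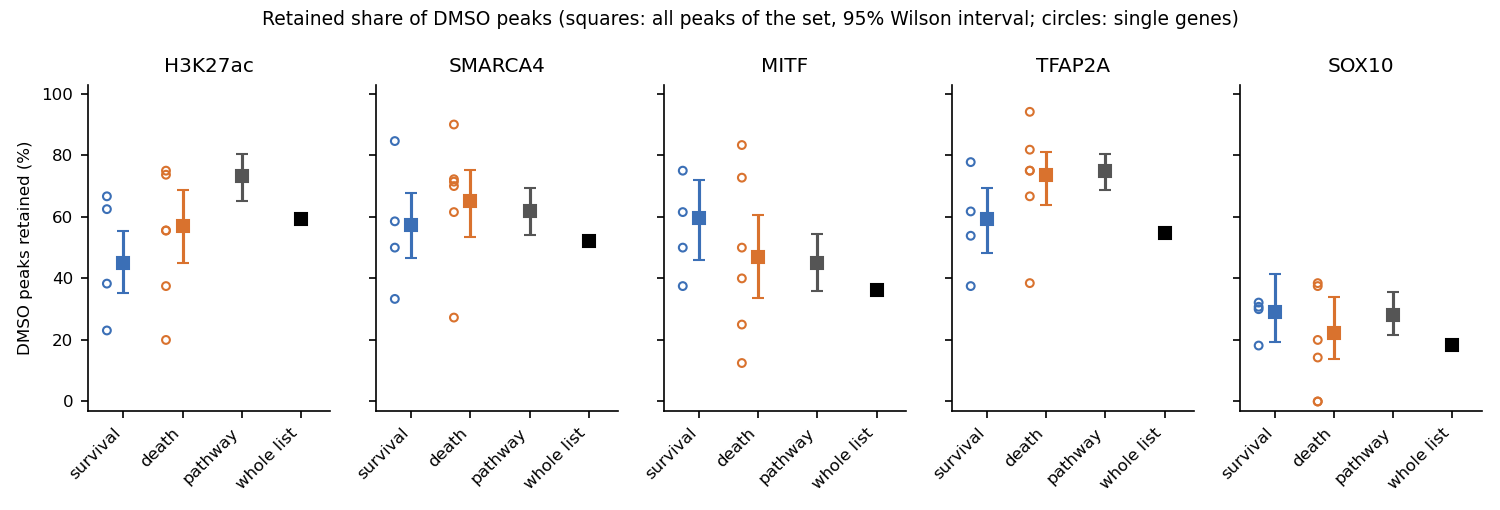
Share of DMSO peaks retained in FHT-1015 (vertical axis, percent) for survival genes, death genes, 14 other genes of the pathway and the whole list, with 1 panel for each antibody; squares are all peaks of a set with 95% Wilson intervals, which cover counting error only, and circles are single member genes. Single genes of both classes overlap in every panel, and SOX10 shares lie lowest, at 29.0% for survival and 22.2% for death genes.

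Among strong DMSO peaks the difference between the classes was smaller for TFAP2A (−4.51 percentage points) and larger for the other 4 antibodies, from −15.2 for H3K27ac (−30.9 to −0.97) to 16.3 for MITF. Strong H3K27ac peaks were retained for 28 of 33 at survival genes and 30 of 30 at death genes, strong SMARCA4 peaks for 11 of 14 and 12 of 13, and strong TFAP2A peaks for 31 of 39 and 42 of 50. Strong MITF peaks were retained for 22 of 27 and 15 of 23, and strong SOX10 peaks for 10 of 20 and 10 of 26. Over the whole lists, strong DMSO peaks were retained for 87.6% (H3K27ac), 85.2% (SMARCA4), 71.5% (TFAP2A), 61.7% (MITF) and 33.0% (SOX10). The members together retained 43.5% of their strong SOX10 peaks, above that whole-list share. The loss of strong SOX10 peaks, seen in both classes, was thus general and not particular to these genes. The plot of DMSO peak strength shows it gene by gene. In FHT-1015, strong SOX10 peaks numbered 3 at survival genes (2 at BCL2 and 1 at BCL2A1) and 2 at death genes (1 at BBC3 and 1 at BAK1).

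**Figure D5:**
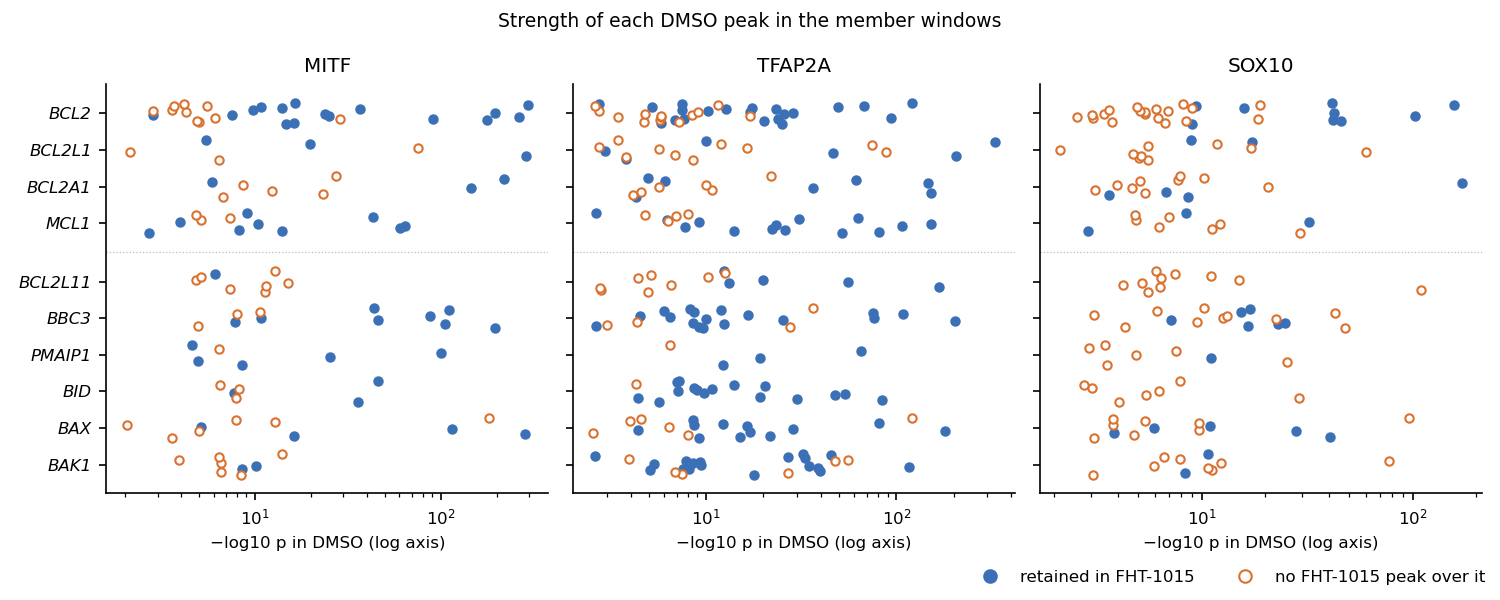
Strength of each DMSO peak (−log10 p given by the authors, log axis) of MITF, TFAP2A and SOX10 in the member windows, with genes on the vertical axis; filled blue points were retained in FHT-1015, open orange points were lost. Most open points lie at low strength in all 3 panels, and the strongest open points stand at 181 for MITF and 120.2 for TFAP2A (both in the BAX window) and at 109 for SOX10 (BCL2L11).

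Peaks at member starts were retained more often than peaks elsewhere in the windows. The same counts were not made over the starts of all genes. Within 1 kb of a start, 14 of 15 H3K27ac, 19 of 19 SMARCA4, 7 of 8 MITF and 12 of 13 TFAP2A peaks were retained. Some of these were pieces under 1 FHT-1015 peak, such as 3 H3K27ac peaks at BCL2 and 3 SMARCA4 peaks at BCL2L1, so they were not separate retentions. The SMARCA4 count also includes a peak of 3.08 near the lower MCL1 boundary. Away from starts the counts were 63 of 139 (45.3%, 37.3 to 53.6), 72 of 130 (55.4%, 46.8 to 63.7), 47 of 93 (50.5%, 40.6 to 60.5) and 108 of 166 (65.1%, 57.5 to 71.9). SOX10 kept 5 of 13 start peaks (38.5%, 17.7 to 64.5) and 27 of 112 others (24.1%, 17.1 to 32.8), with intervals that overlap. Of the 9 members with a start peak, all but BCL2A1, H3K27ac, SMARCA4 and TFAP2A marked 9 in both conditions, MITF 6 in both, and SOX10 9 in DMSO and 5 in FHT-1015. SOX10 was absent in FHT-1015 at the starts of BCL2L11, BBC3, BID and BAK1, and at the survival gene BCL2A1 in both conditions. It was present at BCL2, BCL2L1, MCL1, PMAIP1 and BAX, but weakly, from 2.26 at PMAIP1 and 3.73 at BCL2 to 8.26 at MCL1. The DMSO peak at the BID start was also weak (2.76).

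Merging the DMSO peaks of all antibodies gave 282 sites over the 10 windows. A single antibody marked 164 of them, and all 5 marked 39, with at least 1 such site in every window. At sites with all 5, H3K27ac was retained at 37 of 39, SMARCA4 at 34, TFAP2A at 31, MITF at 26 and SOX10 at 18 (46.2%). At sites with 1 antibody the retained counts were 11 of 57 for H3K27ac, 8 of 22 for SMARCA4, 5 of 13 for MITF, 34 of 59 for TFAP2A and 3 of 13 for SOX10. Sites shared by all antibodies thus kept a given antibody more often than sites of a single antibody, and 14 of the 39 kept all 5. At least 1 retained peak sufficed, and shared sites, up to 7261 bp wide, could hold several peaks of an antibody. Width, peak number and strength were not matched, and sites of other genes were not counted. By class, 9 of 21 at survival genes and 5 of 18 at death genes kept all 5, with BCL2 supplying 5 of the 9. At 7 sites SOX10 was the only antibody lost. BCL2L11, BID and BAK1 had no site that kept all 5.

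FHT-1015-only peaks in the member windows were mostly weak. They numbered 48 for SMARCA4, 34 for TFAP2A, 24 for MITF, 20 for SOX10 and 9 for H3K27ac. Of these, 1 SMARCA4, 2 TFAP2A and 1 H3K27ac peak were strong. Most were weak in the whole lists too, where 861 of 40769 SMARCA4, 1828 of 40938 TFAP2A and 799 of 9521 H3K27ac peaks were strong. For MITF the whole list had 336 of 60043 and for SOX10 69 of 12801. The strong SMARCA4 peak (13.2) lay 245 kb from the BCL2 start, beyond the end of the gene. The strongest SOX10 one (7.13) was in the BBC3 window nearest to CCDC9 and INAFM1, and the strongest MITF one (6.47) was 167 kb into BCL2.

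Another 14 genes of the pathway (BCL2L2, BCL2L10, BAD, BIK, HRK, BMF, BOK, CYCS, APAF1, CASP9, CASP8, DIABLO, XIAP and BIRC5) were read in the same way. For SOX10, 9 of the 11 with at least 5 DMSO peaks had an FHT-1015 number at most 50% of the DMSO number, against 73.7% of all windows. The BH3-only gene BMF had 24 and 6 SOX10 peaks, the survivin gene BIRC5 15 and 5, and the survival gene BCL2L2 13 and 5. For the other antibodies few genes met that criterion. They were 2 of 10 for H3K27ac (23.5% of all windows), the caspase inhibitor XIAP with 8 and 4 peaks and the BH3-only gene BIK with 6 and 3. SMARCA4 had 1 of 10 (8.54% of windows), BIK with 16 and 6 peaks. MITF had 2 of 11 (14.6%), XIAP with 9 and 4 and APAF1, the scaffold of the apoptosome, with 7 and 2. TFAP2A had 1 of 13 (10.0%), the initiator caspase CASP8 with 6 and 3. None had an FHT-1015 number at least 2 times the DMSO number with at least 5 DMSO peaks. As a set they retained 73.4% of 124 H3K27ac peaks (64.99 to 80.4), against 50% of 154 (42.2 to 57.8) for the 10 members, and 28.1% of 153 SOX10 peaks against 25.6% of 125. Its counts thus lay near those of all windows, and its H3K27ac share lay above that of the members.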

How the data were processed

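Reads were processed by the study's authors with BWA, SAMtools, Picard and MACS2 on hg38, per the submitters' processing notes; versions, settings and the control are not given in the sources used here. The authors deposited 10 narrow and 4 broad peak lists, called per library. Per the deposited values, each peak holds a fold enrichment, a ratio over the caller's background, a −log10 p, a −log10 q and a score. The deposited −log10 p reached down to 2, so weak peaks are included. The score deposited by the authors was a rescaled −log10 value and was not used.

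Gene bodies came from RefSeq (GRCh38.p14), starts from its promoter table, and coordinates count from 1. Exons and introns were not annotated. The members and gene lists were chosen with earlier results of these data known. All members were named. Sites named were the strongest DMSO peak per member and antibody, the strongest lost and FHT-1015-only peak per class and antibody, and peaks within 1 kb of a start. Of other pathway genes, at most 3 per antibody past the criterion were named. Some genes of the pathway list are not reported here. Sites marked by all 5 antibodies were merged over shared bases. Shares have 95% Wilson intervals and differences Newcombe intervals, which cover counting error only. Depth was recovered from fold and p as whole summit reads. For the SOX10 FHT-1015 list this held only for reads scaled down by a fitted common factor of 0.89, which enters its depth ratio. The scripts (Python 3.11.15, NumPy 2.4.6, pandas 2.3.3, SciPy 1.17.1) were tested on simulated data. Peak thresholds, list length, overlap rule, window, nearest gene, broad lists, matching, depth and single genes were varied.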

Additional observations from a re-analysis of the deposited data

How the results depend on the processing

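The survival minus death difference kept its sign in 23 of 23 other settings for H3K27ac, 21 of 23 for SMARCA4, 17 of 22 for MITF, 21 of 22 for TFAP2A and 19 of 22 for SOX10. With gene bodies alone the difference was −28.4 percentage points for H3K27ac, −45.8 for SMARCA4, −26.9 for TFAP2A, −9.62 for MITF and −4.44 for SOX10. Counting only peaks whose nearest gene was the member gave −25.6 for H3K27ac, −26.7 for SMARCA4 and −22.7 for TFAP2A. It gave −4.18 for MITF and −2.27 for SOX10. In both settings the intervals, which cover counting error only, excluded 0 for H3K27ac, SMARCA4 and TFAP2A but not for MITF and SOX10. With gene bodies alone, however, BCL2 supplied 38 of the 52 survival peaks for H3K27ac, 32 of 48 for SMARCA4 and 24 of 37 for TFAP2A. The death genes, all with much shorter bodies than BCL2, gave 18, 15 and 23 peaks. Neither setting was matched on strength or closeness to a gene boundary, so a class difference cannot be told apart from gene length. By nearest gene, H3K27ac rested on 73 survival and 27 death peaks, against 91 and 63 in the whole windows. A q-value under 0.05 gave −1.41 for SOX10, and cover of at least 50% of the DMSO peak gave −0.785 for MITF. Limited to strong peaks (−log10 p from 10) in DMSO and FHT-1015 alike, it was 18.1 for SMARCA4 and −7.73 for MITF, and with a fold of at least 5 it was 28.6 for SMARCA4, −13.0 for MITF and 0.357 for TFAP2A, a change of sign. Lists of equal number gave 25.7 for SOX10. H3K27ac ran from −28.4 to −0.606 over its settings. Among strong peaks, the FHT-1015 to DMSO ratio of peak number was 1.07 for SMARCA4 at survival genes and 1.08 at death genes, against 0.775 and 0.899 with all peaks. It was 0.407 for MITF at survival genes, 0.15 for SOX10 at survival genes and 0.0769 for SOX10 at death genes, against 0.827, 0.468 and 0.413. The causes of these shifts were not tested. No paired analysis was possible because each antibody had 1 library per condition. Windows of neighbouring genes overlap the members' own, and the shallower MITF library in FHT-1015 (0.854 of the DMSO depth) limits what its lost peaks show.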
